A study of Mus musculus with 2 samples.

Results

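The 38 genes described here encode the enzymes of glycolysis, the HIF pathway and hypoxia-induced proteins. They were taken by gene symbol from a fixed list, and all 38 were found, 1 entry each, among the 34745 genes of the deposited expression table. The table holds 2 libraries of M-MDSCs (monocytic myeloid-derived suppressor cells, immature myeloid cells that restrain T cells). Marrow cells of mice were grown in vitro for 7 days under GM-CSF alone (CHBP- M-MDSC) or with GM-CSF and CHBP, a cyclic peptide derived from erythropoietin (CHBP+ M-MDSC), and were then sorted by flow cytometry as CD11b+Ly6G-Ly6C high cells. The strain is labelled C57BL/6 in the CHBP- library but C57BL/7 in the CHBP+ library, while the growth protocol names C57/B6 mice for both, and the labels give no age. No other agent or allele is named for either library. Each condition is 1 library, so no difference given here has a replicate check, and CHBP cannot be told apart from anything else in which the libraries differed, the strain label included.

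Glycolysis splits glucose into pyruvate, and lactate dehydrogenase turns pyruvate into lactate, which lets a cell make ATP without oxygen. The transcription factor HIF, a pair of an oxygen-labile alpha subunit and ARNT, accumulates when prolyl hydroxylases and VHL no longer mark the alpha subunit for destruction. It then induces most glycolytic enzymes together with genes such as Vegfa and Bnip3. In myeloid cells HIF-1α is also raised by inflammatory signals in normal oxygen, and glycolysis fuels activated macrophages and MDSCs.

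Depth was similar, with 16484504 counted reads in CHBP- and 16280466 in CHBP+ M-MDSC. Levels are given as reads and as FPKM (reads scaled to the length of the gene and to the depth of the library). The log2 ratio is log2((FPKM in CHBP+ + 1)/(FPKM in CHBP- + 1)), and the 10948 genes that reached 1 FPKM in either library were kept for counts and medians. The fold is the ratio of reads scaled to the library totals, with its exact Clopper-Pearson 95% interval, which covers counting error only. Of the 10 entries for monocyte and M-MDSC markers, 9 reached 1 FPKM, from Ccr2 at 3.29 and 3.84 and Ly6c1 at 3.70 and 2.91 up to Lyz2 at 9756 and 7830 FPKM, while Nos2 was at 0.203 and 0.381 FPKM. The T cell marker Cd3e was at 0.338 and 0.599 FPKM. Ly6g, the granulocytic marker excluded by the sort, had 46 and 44 reads. By summed level in CHBP- and then CHBP+ M-MDSC, the 9 neutrophil markers were at 2033 and 1474 FPKM, the 6 erythroid markers at 1283 and 587, the 7 dendritic cell markers at 799 and 677, the 5 mast cell and basophil markers at 201 and 173, the 4 B cell markers at 27.5 and 19.0, and the 5 T cell markers at 3.27 and 3.00 FPKM. The highest neutrophil markers were S100a9 (1269 and 937 FPKM) and S100a8 (576 and 391), which held most of the sum of their list. Hbb-bs (708 and 212) was the highest erythroid and Cd74 (567 and 438) the highest dendritic cell marker. Unlike the sums of their lists, Cxcr2 (1.05), Ltf (1.06), Itgax (1.33), Zbtb46 (1.92), Cd209a (1.01), Kit (1.16), Pax5 (1.21) and Cd3e (1.77) had folds above 1. The intervals of Cxcr2, Ltf, Cd209a and Cd3e held 1. The 5 macrophage markers summed to 187 and 213 FPKM, most of it Adgre1 (158 and 184), and Mrc1 was also higher in CHBP+ M-MDSC, while C1qa, C1qb and Marco had folds below 1. Of the sorting markers, Ly6c2 had 4091 and 2411 reads, and both Itgam entries were higher in CHBP+ M-MDSC. The part of these cells in the differences below was not tested, nor was whether the M-MDSCs themselves held these transcripts. In bulk RNA fewer cells of a type and less RNA per cell cannot be told apart.

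The core of the hypoxia response element, which HIF binds, is ACGTG, or GCGTG in its other common form. Both were searched, on either strand, in the 250 bases before the start site in 1 RefSeq promoter window per gene (GRCm38.p6), available for 36 of the 38 genes. At least 1 core lay in 27 of these 36 windows (75.0%), against 38.6% of the 27025 windows of all genes. The windows of all genes were not limited to genes expressed here or matched for base composition, so the shares are not a like comparison. The windows of 4 genes are shown from 5′ to 3′ on the gene's strand, with the cores in capitals, which read reversed and complemented where the core is on the other strand: Ak4, which had the lowest log2 ratio of the 38 genes, Bnip3 and Ldha, which had the most cores, and Ero1l, which had the second highest log2 ratio. The palindrome CACGTG holds a core on each strand, is also the E-box bound by MYC, and counts as 2. The windows lie at chr4:101419039-101419288 (plus strand) for Ak4, chr7:138909507-138909756 (minus strand) for Bnip3, chr7:46845554-46845803 (plus strand) for Ldha and chr14:45318573-45318822 (minus strand) for Ero1l.
Ak4: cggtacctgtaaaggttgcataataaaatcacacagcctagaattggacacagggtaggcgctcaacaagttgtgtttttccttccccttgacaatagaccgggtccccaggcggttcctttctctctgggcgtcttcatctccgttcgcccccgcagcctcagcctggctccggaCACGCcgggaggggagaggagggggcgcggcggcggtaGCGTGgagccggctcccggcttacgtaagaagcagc
Bnip3: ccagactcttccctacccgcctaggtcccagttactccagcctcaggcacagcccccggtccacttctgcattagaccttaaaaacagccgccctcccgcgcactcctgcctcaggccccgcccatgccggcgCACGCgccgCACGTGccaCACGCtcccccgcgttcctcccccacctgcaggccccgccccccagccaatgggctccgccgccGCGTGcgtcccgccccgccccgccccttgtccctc
Ldha: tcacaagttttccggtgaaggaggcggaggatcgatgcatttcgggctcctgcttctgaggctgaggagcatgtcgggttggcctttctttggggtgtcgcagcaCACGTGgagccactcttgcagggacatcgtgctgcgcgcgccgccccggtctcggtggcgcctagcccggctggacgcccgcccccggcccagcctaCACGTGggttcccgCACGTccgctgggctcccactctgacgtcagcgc
Ero1l: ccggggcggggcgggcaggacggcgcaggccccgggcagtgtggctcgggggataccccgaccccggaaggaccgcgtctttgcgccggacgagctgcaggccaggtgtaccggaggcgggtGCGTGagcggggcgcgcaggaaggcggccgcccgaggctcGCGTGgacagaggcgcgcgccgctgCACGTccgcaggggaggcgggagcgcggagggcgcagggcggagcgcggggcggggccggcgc
These windows held 2 cores for Ak4, 5 for Bnip3, 5 for Ldha and 3 for Ero1l. Among the members kept, the 25 with a core had a median log2 ratio of -0.07 and the 8 without had -0.14. Windows with cores belonged to genes that were lower, higher and nearly equal between the libraries. A match is a run of letters, and binding was not measured.

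Of the 38 genes, 34 reached 1 FPKM in at least 1 library. None was at least 1.5-fold higher in CHBP+ M-MDSC, where 3.42% of all genes kept were, and 1, Ak4, was at least 1.5-fold lower, against 2.89% of all genes kept. The median log2 ratio of the 34 genes was -0.07, with a median of -0.03 over all genes kept. Log2 ratios below 0 were found in 21 of the 34, against 53.7% of all genes kept. The interval of the fold lay wholly below 1 in 16 and wholly above 1 in 10 of the 34, against 31.0% and 27.9% of all genes kept, so that many small differences exceeded counting error. The interval narrows as reads rise. All genes kept were not matched to the members or to the lists below for read number, so these shares are not a like comparison. Apart from Ak4 the log2 ratios ran from -0.44 (Higd1a) to 0.44 (Arnt). These differences were small, and how much such values vary between cultures was not measured.

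**Figure D1:**
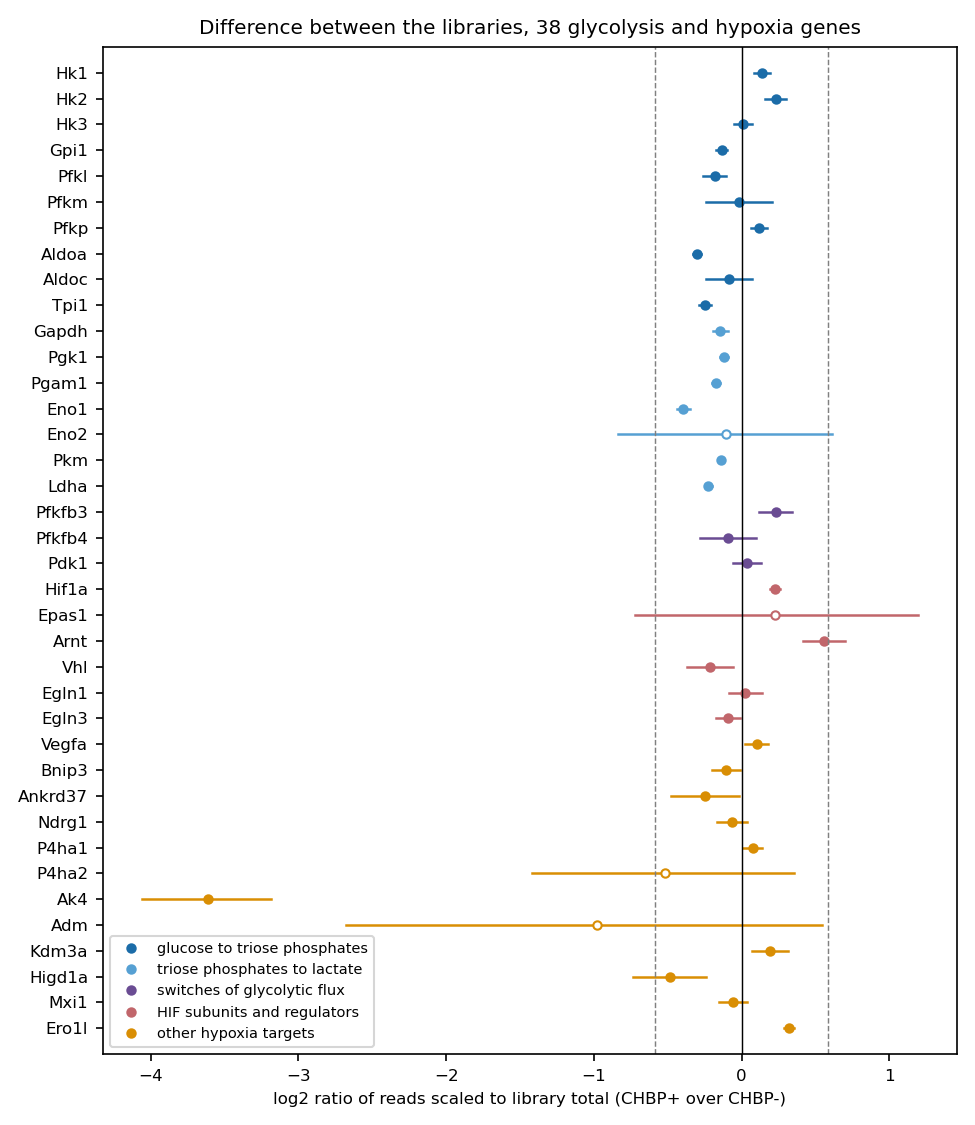
Log2 ratio of reads scaled to the library total (x axis, CHBP+ over CHBP-) for the 38 genes, coloured by role. Points are single libraries compared, bars are 95% counting intervals, open points are the 4 genes under 1 FPKM in both libraries, and dashed lines mark 1.5-fold; Ak4 alone lies beyond a dashed line among the filled points.

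The first enzymes carry glucose to the triose phosphates, and hexokinases open the route by trapping glucose as its phosphate. Hk1, the broadly expressed hexokinase, had 5186 reads (25.4 FPKM) in CHBP- and 5629 (27.9 FPKM) in CHBP+ M-MDSC, a fold of 1.10 (1.06 to 1.14). Hk2, the HIF-inducible hexokinase, had 3000 and 3479 reads (26.5 and 31.2 FPKM), a fold of 1.17 (1.12 to 1.23). Hk3, the hexokinase typical of myeloid cells, had the highest FPKM of the hexokinases, at 44.2 and 44.4, and a fold of 1.00 (0.964 to 1.05). So Hk1 and Hk2 were slightly higher in CHBP+ M-MDSC, and for Hk3 no difference was detectable at this depth. Gpi1, which turns glucose 6-phosphate into fructose 6-phosphate, had 12207 and 10981 reads, a fold of 0.911 (0.888 to 0.935).

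Phosphofructokinase is the committed step, and its subunits differed in direction. Pfkl, the liver-type subunit, had 35.9 and 31.7 FPKM and a fold of 0.881 (0.835 to 0.930). Pfkp, the platelet-type subunit, had 26.8 and 29.1 FPKM and a fold of 1.09 (1.04 to 1.13). Pfkm, the muscle-type subunit, was lowest, at 6.93 and 6.85 FPKM, with a fold of 0.989 (0.847 to 1.15). Thus Pfkl was lower and Pfkp higher in CHBP+ M-MDSC beyond counting error, while the interval of Pfkm held 1. Aldoa, the main aldolase, had 20526 and 16453 reads (211 and 171 FPKM), a fold of 0.812 (0.795 to 0.828). Aldoc, the aldolase best known from brain, had 7.65 and 7.21 FPKM and a fold of 0.943 (0.846 to 1.05). Tpi1, which interconverts the triose phosphates, had 11089 and 9216 reads (170 and 143 FPKM), a fold of 0.842 (0.818 to 0.865). Aldoa and Tpi1 had the lowest folds of these 10 genes, of which 4 were lower, 3 higher and 3 within counting error of 1. Beside this, 31.0% of all genes kept were lower and 27.9% higher beyond counting error.

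The 7 genes that lead from the triose phosphates to lactate hold the most abundant transcripts. Pkm, the pyruvate kinase that yields ATP and pyruvate, had the highest FPKM of all 38 genes, at 996 and 905, with 42663 and 38298 reads. Its fold was 0.909 (0.896 to 0.922). Pgam1, the phosphoglycerate mutase, had 668 and 592 FPKM and a fold of 0.886 (0.869 to 0.905). Both were thus slightly lower in CHBP+ M-MDSC, beyond counting error.

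Pgk1, which makes the first ATP of the pathway, had 412 and 379 FPKM and a fold of 0.921 (0.903 to 0.939). Ldha, which makes lactate, had 24851 and 21010 reads (329 and 281 FPKM), a fold of 0.856 (0.840 to 0.872). Gapdh, which oxidises the triose phosphate, had 6750 and 6028 reads (47.5 and 42.9 FPKM), a fold of 0.904 (0.873 to 0.936). Eno1, the enolase, had 9997 and 7505 reads (77.1 and 58.6 FPKM), and its fold of 0.760 (0.738 to 0.783) was the lowest of the glycolytic enzymes. Eno2, the neuronal enolase, stayed under 1 FPKM, with 36 and 33 reads, and no difference was detectable at this depth. All 6 genes of this stretch that were kept were lower in CHBP+ M-MDSC beyond counting error, with a median log2 ratio of -0.16. Of all genes kept, which were not matched for read number, 31.0% were lower in this sense. Over all 17 glycolytic enzymes, the summed reads were 190797 and 168655, a fold of 0.895, and Pkm, Ldha, Pgk1, Aldoa and Pgam1 held most of them.

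**Figure D2:**
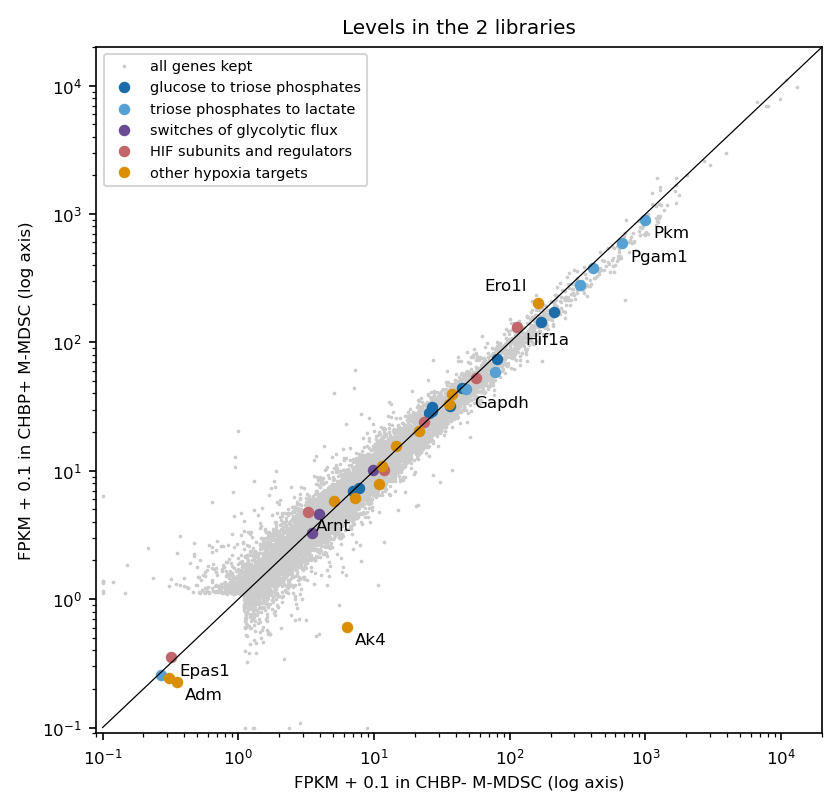
FPKM + 0.1 in CHBP- (x axis) and CHBP+ M-MDSC (y axis), both log axes, for the 38 genes coloured by role over all genes kept in grey. The glycolytic enzymes lie close to the diagonal from Pfkm at 6.93 to Pkm at 996 FPKM in CHBP- M-MDSC, with Eno2 under 1 FPKM, while Ak4 lies far below it.

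Near-identical copies can share reads with these enzymes. Eno1b, a retrotransposed enolase, had 3218 and 3250 reads, and Eno1 and Eno1b summed gave a fold of 0.824 (0.803 to 0.845), nearer to 1 than that of Eno1 alone. Pgam1-ps2 had 1140 and 1037 reads, and with both listed copies summed the fold of Pgam1 was 0.888. The listed copies of Gapdh, Ldha, Pgk1, Tpi1 and Aldoa had at most 60 reads each in either library. Copies that carry other names were not searched. The spans of Hk1, Pfkm, Pfkp, Tpi1, Gapdh and Ankrd37 overlap another listed gene with at least 10 reads, and their counts are uncertain to that extent.

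Log2 ratios in these libraries followed gene length. Across the 10948 genes kept, the correlation of the log2 ratio with the length behind the deposited FPKM was 0.478 (Spearman's rho), and it was 0.535 across the 34 members. With the longest GENCODE M1 transcript in place of that length, rho was 0.658 over 10508 genes and 0.693 over the 34 members. All of these genes share the same libraries and are not independent replicates. The median longest transcript was 1828 bases for the 6 enzymes from Gapdh to Ldha that were kept, against 2969 bases for all genes kept. With a fitted trend on the longest transcript and mean FPKM removed, their median log2 ratio went from -0.16 to -0.01, and 3 of the 6 were below 0. Removal of the trend on the deposited length left it at -0.05, also with 3 of 6 below 0. After removal, Eno1 was at -0.23 (longest transcript) and -0.44 (deposited length) and Aldoa at -0.08 and -0.27, so both stayed below 0 in each fit. Gapdh, at -0.14 before, went to 0.10 with the longest transcript and to -0.21 with the deposited length. The median trend fitted at the lengths and levels of these 6 enzymes was -0.18 with the longest transcript and -0.12 with the deposited length, beside their own -0.16. Among the hexokinases, Hk2, at 0.22 before, went to 0.04 with the longest transcript and to 0.19 with the deposited length.

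**Figure D3:**
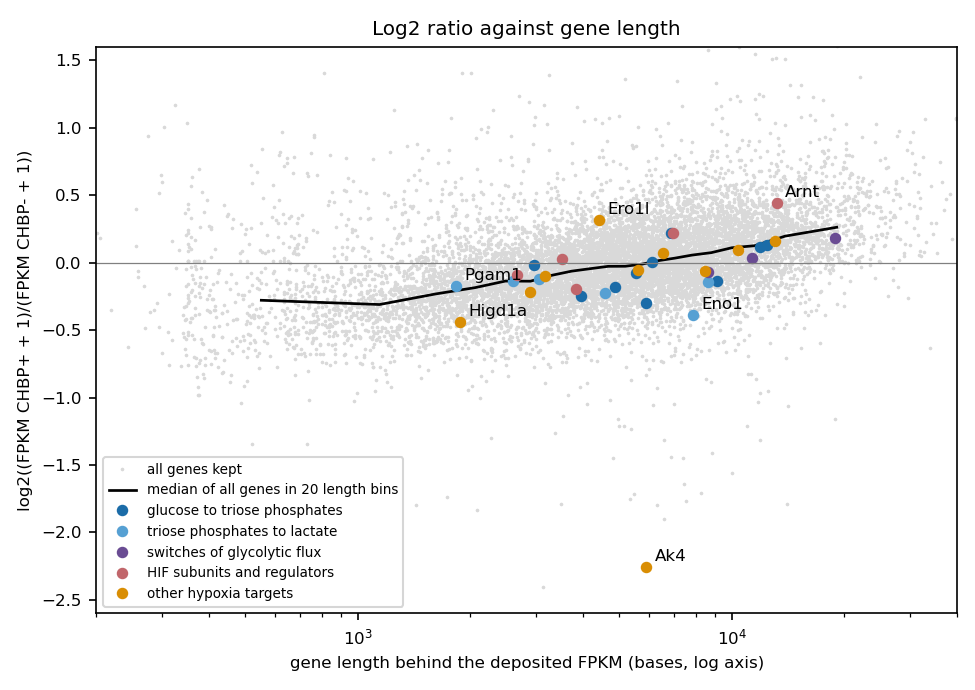
Log2 ratio (y axis) against the gene length behind the deposited FPKM (x axis, bases, log axis) for the 34 members kept, coloured by role, over all genes kept in grey, a few of which lie outside the axes. The black line is the median of all genes in 20 length bins, and most members lie near it. Ak4 at -2.26 lies far below it, Eno1 (-0.39), Aldoa (-0.30) and Higd1a (-0.44) lie below it, and Ero1l (0.32) and Arnt (0.44) lie above.

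The next 3 genes set the flux through glycolysis and the fate of pyruvate. Pfkfb3 makes fructose 2,6-bisphosphate, the activator of phosphofructokinase, and had 1187 and 1376 reads (3.81 and 4.47 FPKM), a fold of 1.17 (1.09 to 1.27). Pfkfb4, its paralog, had 3.36 and 3.15 FPKM and a fold of 0.938 (0.823 to 1.07). Pdk1, which blocks pyruvate dehydrogenase, had 1816 and 1842 reads and a fold of 1.03 (0.962 to 1.10). Pfkfb3 was thus slightly higher in CHBP+ M-MDSC, with no difference detectable at this depth for the others, and its log2 ratio of 0.19 was -0.09 once the trend on the deposited length was removed.

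Hif1a carried nearly all of the HIF alpha subunit mRNA of these cells. It had 12971 and 14976 reads (113 and 132 FPKM), a fold of 1.17 (1.14 to 1.197). Epas1, which encodes HIF-2α, had 19 and 22 reads, both under 1 FPKM, and its fold of 1.17 had an interval from 0.606 to 2.29. Hif1a was thus higher in CHBP+ M-MDSC beyond counting error, and its log2 ratio of 0.22 was 0.21 and 0.11 with the trend on the deposited length and on the longest transcript removed. Arnt, the shared partner, had 685 and 998 reads (3.15 and 4.65 FPKM). Its fold of 1.48 (1.34 to 1.63), whose interval held 1.5, was the highest of the 34 members kept. Its log2 ratio on FPKM + 1, 0.44, lay under the 1.5-fold line at 0.58, and it was 0.25 and 0.33 in the same fits.

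Among the regulators that lower HIF, Vhl differed about as much as Hif1a, and the prolyl hydroxylases differed less. Vhl, which tags hydroxylated HIF for destruction, had 740 and 631 reads (11.7 and 10.1 FPKM), a fold of 0.863 (0.775 to 0.961). Egln1, the main HIF prolyl hydroxylase, had 23.4 and 23.8 FPKM and a fold of 1.02 (0.944 to 1.10). Egln3, a hydroxylase that HIF itself induces, had the highest FPKM of the pair, at 55.9 and 52.4, and a fold of 0.938 (0.885 to 0.993). So Vhl and Egln3 were slightly lower in CHBP+ M-MDSC, and for Egln1 no difference was detectable at this depth. The log2 ratio of Vhl, -0.19, was -0.13 and -0.14 with the trends on the deposited length and on the longest transcript removed.

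Ak4 (ENSMUSG00000028527, chr4:101419277-101466995 in the deposited coordinates, GRCm38) encodes a mitochondrial adenylate kinase and is a known hypoxia target. It had 606 reads (6.22 FPKM) in CHBP- and 49 reads (0.510 FPKM) in CHBP+ M-MDSC, which is 12.2-fold lower (9.12 to 16.7). Its log2 ratio of -2.26 was the third lowest of the 10948 genes kept. With the trends on the deposited length and on the longest transcript removed, it was -2.28 and -2.44. Its span is free of other listed genes that had 10 or more reads. Ak3l2-ps, a listed adenylate kinase pseudogene, had 33 and 58 reads. Its reads were not summed with those of Ak4, and whether the pair share reads was not analysed. The fold of Ak4 is uncertain to that extent.

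Other adenylate kinases differed less between the libraries. Ak3, the matrix enzyme, had 908 and 917 reads, a fold of 1.02 (0.932 to 1.12). Ak6 had 1826 and 1511 reads, a fold of 0.838, and Ak8 had 76 and 103, a fold of 1.37 (1.01 to 1.87). Ak1, the cytosolic kinase, had 112 and 134 reads, and its interval held 1. Ak5, Ak7 and Ak9 had at most 5 reads in either library. Of these, Ak1, Ak3, Ak6 and Ak8 reached 1 FPKM, and each was less than 1.5-fold apart.

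Other hypoxia targets stayed near 1 and pointed both ways. Ero1l, the oxidase that forms disulphide bonds in the endoplasmic reticulum, had 11796 and 14542 reads (162 and 202 FPKM), a fold of 1.25 (1.22 to 1.28). Higd1a, a mitochondrial survival protein, had 335 and 236 reads (10.9 and 7.74 FPKM), a fold of 0.713 (0.601 to 0.845). These were the highest and, after Ak4, the lowest of the target genes kept. They held their direction in both fits, at 0.40 and 0.24 for Ero1l and -0.27 in each for Higd1a.

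Vegfa, the angiogenic factor, had 2456 and 2602 reads (14.3 and 15.4 FPKM), a fold of 1.07 (1.01 to 1.13). Bnip3, a mitophagy receptor, had 1838 and 1689 reads (35.3 and 32.9 FPKM), a fold of 0.930 (0.870 to 0.995). Ankrd37, an ankyrin-repeat protein often used as a hypoxia marker, had 339 and 282 reads, a fold of 0.842 (0.717 to 0.989). In these widely used reporters of hypoxia, the bounds of the intervals nearest to 1 differed from it by little. P4ha1, a subunit of the collagen prolyl hydroxylase, had 37.7 and 39.7 FPKM and a fold of 1.05 (1.01 to 1.10). Kdm3a, a histone demethylase, had 1074 and 1212 reads, a fold of 1.14 (1.05 to 1.24). Ndrg1, a stress-response protein, had 11.4 and 10.9 FPKM and a fold of 0.956 (0.890 to 1.03). Mxi1, an antagonist of MYC, had 21.3 and 20.5 FPKM and a fold of 0.961 (0.901 to 1.02), so its interval and that of Ndrg1 held 1.

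P4ha2, the other collagen hydroxylase subunit, had 29 and 20 reads. Adm, the vasodilator adrenomedullin, had 12 and 6 reads. At this depth no difference was detectable in either, with intervals of the fold from 0.374 to 1.28 and from 0.156 to 1.46. Of the 10 target genes kept, 4 were lower, 4 higher and 2 within counting error of 1, with a median log2 ratio of -0.06. Of all genes kept, 31.0% were lower and 27.9% higher in this sense.

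Pathway genes outside the 38 were read from 8 further lists of 110 genes, of which 86 were kept. Of the 86, 2 were at least 1.5-fold higher and 2 at least 1.5-fold lower in CHBP+ M-MDSC, against 3.42% and 2.89% of all genes kept, and their median log2 ratio was -0.09. The largest difference was in Mpc1, a subunit of the carrier that takes pyruvate into mitochondria (chr17:8282904-8297661). It had 723 and 312 reads (10.7 and 4.68 FPKM), which is 2.29-fold lower (2.00 to 2.62). Mpc2, its partner subunit, had 385 and 249 reads, a fold of 0.655 (0.556 to 0.770) and a log2 ratio of -0.41. Mpc1 was at -1.04, and at -0.99 and -0.76 with the trends on the deposited length and on the longest transcript removed. The pyruvate dehydrogenase genes behind the carrier were closer to 1, with folds of 1.00 for Pdha1, 0.838 for Pdhb and 0.911 for Dlat.

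Ep300, a coactivator of HIF, had 1599 and 2913 reads, a fold of 1.84 (1.73 to 1.96). Tceb2, the elongin B that works with VHL, had 1112 and 704 reads, a fold of 0.641 (0.582 to 0.705), and its span overlaps another gene with reads. Neither was 1.5-fold apart after either trend was removed, with log2 ratios on the longest transcript of 0.37 for Ep300 and -0.27 for Tceb2. In the pentose phosphate pathway, which branches off at glucose 6-phosphate, 6 of 8 genes were lower and 2 higher beyond counting error, beside 31.0% and 27.9% of all genes kept, and the median log2 ratio was -0.25. Its lowest were Pgls at -0.56 and Taldo1 at -0.36. G6pdx, the first enzyme of that route, had 6107 and 6302 reads, a fold of 1.04 (1.01 to 1.08). The spans of Pgls, G6pdx and Rpe overlap another gene with reads. The median of this list stayed at -0.19 in both fits, and 6 of 8 genes stayed below 0.

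Among 9 genes of glucose and lactate transport, 5 were lower beyond counting error and none higher, beside 31.0% and 27.9% of all genes kept. Bsg, the chaperone of the lactate transporters, had a log2 ratio of -0.33 and Slc16a1, a lactate transporter, -0.29. Slc2a1, the main glucose transporter of hypoxic cells, had 3031 and 2788 reads, a fold of 0.931 (0.884 to 0.981). Of 16 other glycolytic isoforms and branch enzymes, 6 had no read in either library and 8 were kept, with Pfkfb2 at 0.38 (144 and 260 reads, a fold of 1.83 without the pseudocount) and Galk1 at -0.36 the farthest from 0. Of 31 further hypoxia-induced genes, 24 were kept, and none of those kept was 1.5-fold apart. Rora (91 and 225 reads) and Lox (7 and 19 reads) stayed under 1 FPKM and were not kept. Their folds were 2.50 (1.95 to 3.23) and 2.75 (1.11 to 7.74), and the intervals of the other genes not kept held 1. Of the genes kept, Adora2b, an adenosine receptor, and Mif, a cytokine, were the farthest from 0, at -0.42 and -0.39, and the median was -0.05. Over the 86 genes, 39 were lower and 13 higher beyond counting error, and the interval of 34 held 1, where 31.0% of all genes kept were lower and 27.9% higher in this sense. With the trends on the deposited length and on the longest transcript removed, the median of the 86 genes was -0.03 and -0.02. Then 50 and 44 of the 86 were below 0, against 5796 of 10948 and 5455 of 10508 of all genes kept in the same fits.

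**Figure D4:**
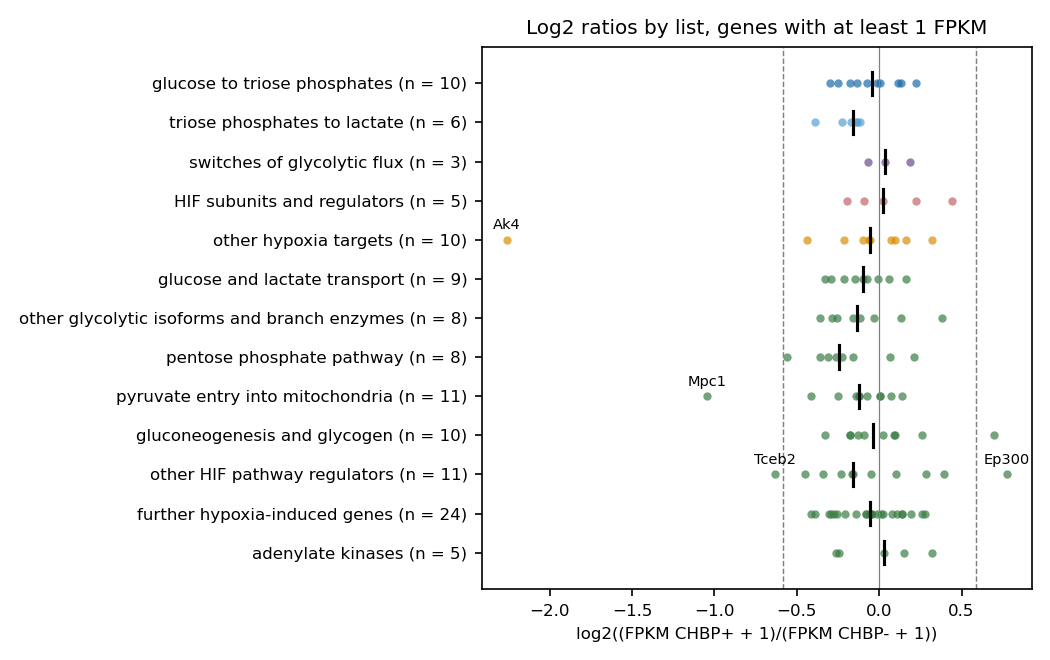
Log2 ratios (x axis, CHBP+ over CHBP- on FPKM + 1) of the genes kept, by list (y axis), with members in colours by role, other pathway genes in green, the list median as a black bar and dashed lines at 1.5-fold. Ak4 (-2.26), Mpc1 (-1.04) and Tceb2 (-0.64) lie beyond the lower line and Ep300 (0.78) lies beyond the upper one.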

How the data were processed

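The authors' processing notes name HISAT2 2.0.4, Cufflinks 2.1.1, Cuffdiff and the builds mm10 and GRCm38, whereas the paper's methods name TopHat2, HT-seq, DESeq and mm9. All 38 genes lay on their RefSeq gene on GRCm38. Adapters, low-quality ends, short reads and ribosomal reads were removed with Seqtk. The deposited counts are raw reads per gene, and how multi-mapping reads and strand were handled is not given in the sources used here. The deposited FPKM are those counts scaled by gene length and by total count per library, and the lengths implied by the separate libraries differed by at most 0.113 base for each of the 38 genes.

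Samples were grouped by the treatment label. The log2 ratio used a pseudocount of 1 FPKM and a minimum of 1 FPKM in at least 1 library, and 1.5-fold is the threshold of the methods. No test between conditions was run, since 1 library per condition leaves no replicate spread, and the DESeq test was not repeated. Trends were least-squares polynomials in log2 length and log2 mean FPKM over all genes kept, with the length from the deposited values or the longest GENCODE M1 transcript (95.98% of genes kept). Fold, interval and trend removal were run on simulated reads with counting error only and a straight-line trend on log2 deposited length. The fit contains that form, so the simulation does not show how well it removes the trend in these data. The fit on the longest transcript was not simulated.

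The members and lists were chosen with earlier results of these data known. Every member is named. Of the other lists, genes 1.5-fold apart are named, otherwise the 2 farthest from 0, except that some genes counted in the lists are not reported here by name. Others named were chosen after their values were seen, among them Rpe, Mpc2, Pdha1, Pdhb, Dlat, G6pdx, Slc2a1, Rora and Lox. The copies, and the trend on the longest transcript, were also chosen after seeing the data. Alternatives were a pseudocount of 0.1, no filter, at least 5 FPKM, CPM, scaling by TMM (edgeR 4.0.16, R 4.3.3), centring on the median, a fold of 2, both trends, and overlapping genes left out. Python 3.11.15, numpy 2.4.6, pandas 2.3.3, scipy 1.17.1 and matplotlib 3.10.9 were used.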

Additional observations from a re-analysis of the deposited data

How the results depend on the processing

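No paired analysis was possible because each condition has 1 library, which also leaves no replicate to omit. The counts of members 1.5-fold apart, none higher and Ak4 lower, were the same under each alternative run. The members' median log2 ratio lay between -0.09 and -0.04, except with the trend on the longest transcript removed (added after seeing the data), where it was 0.00012. For the pathway genes outside the 38, the counts of 2 higher and 2 lower went to 0 and 1 with either trend removed, and 1 was lower with overlapping genes left out, since Tceb2 was then not counted. With a pseudocount of 0.1 and with CPM the counts were 3 and 3, as Pfkfb2 was then past the line upward and Pgls downward.

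With the trend on the deposited length removed, 10 members whose interval lay off 1 changed sign, to 0.057 for Pkm, 0.051 for Egln3, -0.094 for Pfkfb3, -0.030 for Hk1, -0.037 for Pfkp, 0.035 for Pgk1, 0.056 for Pgam1, -0.032 for Vegfa, 0.010 for Bnip3 and -0.026 for Kdm3a. With the trend on the longest transcript removed, 6 did, to 0.080 for Ankrd37, -0.0030 for Pfkp, 0.063 for Pgk1, 0.098 for Gapdh, 0.0033 for Pgam1 and 0.091 for Bnip3. The cause of the trend was not tested. No member changed sign in this way with another pseudocount, CPM, median centring or TMM scaling. Ak4 was at -3.37 with a pseudocount of 0.1 and -3.24 with CPM. Depth limits Eno2, Epas1, P4ha2 and Adm, with at most 36 reads in either library.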

Other observations

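The order of the enzymes by level depended on the length used. The length behind the deposited FPKM was 8626 bases for Gapdh, 6.07 times its longest GENCODE M1 transcript of 1420 bases, and 1831 bases for Pgam1, equal to its longest transcript. The ratio was 3.88 for Eno1, 3.82 for Aldoa and 2.60 for Ldha. With the longest transcript in place of the deposited length in the FPKM, Gapdh was at 288 in CHBP- and 261 in CHBP+ M-MDSC, in place of 47.5 and 42.9 FPKM. Ldha (854 and 731) and Aldoa (804 and 652) then came before Pgk1 (689 and 634) and Pgam1 (668 and 592), whereas by deposited FPKM Pgam1 and Pgk1 came before both. Pkm was highest on both scales, at 1165 and 1059 on the scale of the longest transcript. The choice of length cancels in a ratio between the libraries without a pseudocount, although the ratios followed gene length as given above. The pseudocount of 1 FPKM weighs more on a gene whose deposited length is long, such as Arnt, with 13171 bases against 4325. The fold of Arnt was 1.48, and its log2 ratio was 0.44 on FPKM + 1.

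Ak3l2-ps, a listed adenylate kinase pseudogene of 672 bases on chromosome 2, was higher in CHBP+ M-MDSC, with a fold of 1.78 (1.14 to 2.82 for counting error), on the same libraries in which Ak4 was 12.2-fold lower. Where on Ak4 its reads fell was not analysed here.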
